A study of Mus musculus with 2 samples.

Results

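Ttr, Folr1, Kl, Clic6, Aqp1, Enpp2, Sostdc1 and Slc4a5 are 8 genes whose transcripts are abundant in the choroid plexus, and their probes were read in the brain of postpartum mice that lack TDAG51. The probes were taken by gene name among the rows that are not control spots on both arrays. In all, 7 of the 8 genes had a probe under their own name, which gave 11 of 41174 probes on the array. The name Slc4a5 was not found in the files, and 2 probes listed as C330016K18Rik, an older name of Slc4a5 in the gene table used here, are described on their own and stay out of the counts.

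The arrays held total RNA of whole brain from female C57BL/6J dams, 8 weeks old, taken on postpartum day 0. Each of the 2 arrays carried 2 samples in different dyes. On both, the TDAG51 KO sample (TDAG51-/-) was in Cy3. The Cy5 sample was TDAG51 WT (TDAG51+/+) on the first array and TDAG51 KO Tg on the second, which the study calls TDAG51-/-Tg2. The KO Tg dams carry the same deletion plus a TDAG51 transgene of 1 of the study's lines, driven by the brain-specific BAI1-AP4 promoter, whose activity lies mainly in cerebral cortex and hippocampus. The sources do not state how many dams a sample holds, nor whether both KO channels hold the same extract. The comparisons ask how the knockout brain differs from the wild-type brain, and whether the transgene shifts that difference. Each was made on 1 array without a dye swap, so dye and genotype cannot be told apart, the spread between dams was not measured, and no test of any gene was possible.

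The choroid plexus is a folded sheet of epithelium on fenestrated vessels in the brain ventricles. It secretes cerebrospinal fluid by moving ions and water across its cells, and it carries hormones, vitamins and signalling proteins between blood and fluid. Because its epithelium makes some transcripts at far higher levels than neurons or glia do, the same few genes often lead gene lists from whole brain. Several of the members are also made elsewhere: Enpp2 in oligodendrocytes, and Aqp1 in red blood cells, where it is the water channel of the membrane. In RNA of a whole brain, fewer choroid plexus cells and less RNA per cell cannot be told apart.

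The TDAG51 gene (Phlda1) was read first as a check of the labels. Its probe gave a spot intensity of 350.5 for KO and 7283 for WT on the first array, 17.2-fold lower in KO after normalization. On the second array it gave 44.1 for KO and 50.5 for the sample labelled TDAG51 KO Tg, and neither was well above background, so this probe did not show the transgene. Whether the transgene carries the probe's sequence is not given in the sources used here, and KO Tg below stands for the sample so labelled. Of genes that mark brain tissue, 6 of 6 neuronal and 10 of 10 myelin genes were detected. The KO sample read alike on both arrays for most probes. The Cy3 difference between arrays had a robust SD of 0.146 on the log2 scale over 34207 probes, against 0.424 for the Cy5 difference between KO Tg and WT, and 124 probes differed 2-fold or more in Cy3. The globin genes Hba-a1 and Hbb-b1 were among these, brighter on the second array by 4.04 and 2.71 on the log2 scale. Phlda1 was another, with a Cy3 difference of -2.79, so the KO channels disagree on the deleted gene too. The globin values touch Aqp1 and are taken up beside it.

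Most member genes were slightly brighter in TDAG51 KO than in either control. By the brightest probe of each gene, 5 of 7 were higher than WT, 6 of 7 higher than KO Tg and 5 of 7 higher than both, and by probe 9 of 11 were higher than both. Over all probes that the scanner marked as well above background in 1 channel or more on both arrays, 38.2% were higher in KO than in both controls. The median log2 ratio of the 7 genes was 0.51 against WT and 0.34 against KO Tg, where the median of all probes was 0.01 and 0.02, with robust SDs of 0.499 and 0.493. No member gene reached the study's 2-fold threshold upward under its own name, where 4.9% of all probes did against WT, 4.73% against KO Tg and 2.7% against both. Aqp1 alone reached it downward, against WT, as did 4.42% of all probes. Against KO Tg no member was 2-fold lower, and 3.85% of all probes were. The direction of the background itself depends on the scaling. By loess 897 probes were 2-fold higher and 456 2-fold lower in KO than in both controls, against 831 and 756 with median centring and 582 and 1233 without normalization.

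**Figure D1:**
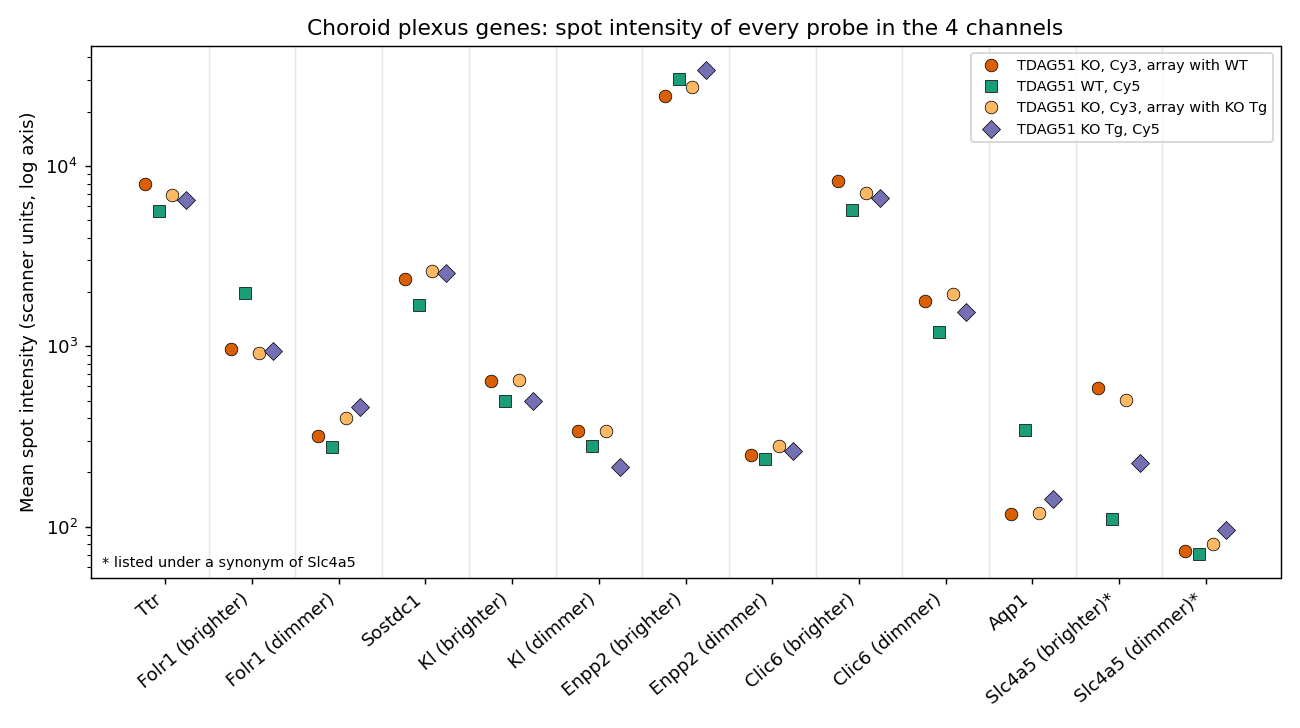
Spot intensity (scanner units, log axis) of the 11 member probes and of the 2 probes listed under a synonym of Slc4a5, with 1 point for each of the 4 channels. Raw intensities are shown, before background correction and normalization, and heights of different probes are not comparable. The WT point of Aqp1 (344.2) and of the brighter Folr1 probe (1973) stands above the other 3 channels, and for the brighter Slc4a5 probe both KO points (589.1 and 503.2) stand above the controls.

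Every member probe was well above background in all 4 channels and none was saturated, so each ratio is a measured value. Each probe is 1 spot, and the scanner's own error of a log ratio was 0.205 to 0.278 on the log2 scale for the 11 probes. The probes lie on 7 chromosomes, at a GC content of 30% to 53.3%. All positions below are those the files give, on mm7. Whether a probe lies in a coding exon or an untranslated region could not be read, since no mm7 annotation was used here.

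Ttr encodes transthyretin, the carrier of thyroid hormone and of retinol-binding protein that choroid plexus secretes into the fluid, and it is often used as the mark of this tissue. Its probe (A_51_P194149, chromosome 18, plus strand) gave 7965 for KO and 5608 for WT on the first array. On the second it gave 6887 for KO and 6478 for KO Tg. KO was the brighter channel both times, and WT the dimmest of the 4. After normalization KO was 1.85-fold above WT (log2 ratio 0.89), higher than 93.6% of the probes on that array, and 1.4-fold above KO Tg (log2 ratio 0.49), higher than 82.0%. The KO Tg sample was 1.13-fold above WT in Cy5, a log2 difference of 0.18 that lies inside the robust SD of all probes.

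The genes that work with Ttr did not share its pattern. Of 7 genes of thyroid hormone and retinol handling, 0 were higher in KO on both arrays and 6 were lower on both, with medians of -0.52 and -0.45 on the log2 scale. Over all probes 38.2% were higher in KO on both arrays. The share of all probes lower on both was not counted, for this list or for the later ones. Rbp4, the retinol-binding protein that transthyretin carries, had log2 ratios of -0.70 and -0.62. Dio2, the deiodinase that activates thyroxine, was 2.57-fold lower against WT (log2 ratio -1.36), with a log2 ratio of -0.45 against KO Tg.

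Folr1 encodes folate receptor alpha, which takes up folate from blood for transport across the choroid plexus. On the first array its probes differed more from each other than those of any other member read under its own name. The first 30 of 60 bases of both are printed because they mark which stretch of the gene each reading comes from.
Folr1 A_51_P329394, chr7:97904661-97904720, minus strand: tgatcagctgagttcctgttttaccttcag
Folr1 A_52_P584335, chr7:97914703-97914762, minus strand: ctgggctttttcctgtgctccgagtaggtg
The probe starts lie 10042 bases apart. The first, the brighter one, gave 970.7 for KO and 1973 for WT on the first array, then 920.9 for KO and 939.7 for KO Tg on the second. WT was thus the 1 high channel, and the other 3 lay close together. The normalized log2 ratio was -0.81 against WT, 1.75-fold lower in KO and lower than all but 7.12% of the probes, and it was 0.19 against KO Tg, or -0.04 without normalization. KO Tg was 2.14-fold below WT in Cy5, where 4.12% of all probes were at least 2-fold lower.

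The second Folr1 probe gave 317.4 for KO and 277.4 for WT, then 399.4 for KO and 459.8 for KO Tg. Its log2 ratio was 0.26 against WT and 0.01 against KO Tg, and its Cy5 difference between KO Tg and WT was 0.61, opposite in sign to that of the first probe. The ratios of both probes therefore differed by 1.07 on the log2 scale on the first array (first minus second: -1.07) and by 0.19 on the second. Both values of WT come from the same RNA on the same slide, and which of the 2 stretches stands for the transcript as a whole was not tested. A sign pattern of lower than WT and higher than KO Tg, which the brighter probe shows, was held by 13.5% of all probes. Of 5 folate genes, 1 was higher on both arrays and 2 lower on both. The reduced folate carrier Slc19a1 had log2 ratios of 0.40 and 0.33, and the proton-coupled folate transporter Slc46a1 -0.09 and -0.62.

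Sostdc1 encodes a secreted antagonist of bone morphogenetic proteins that also binds Wnt co-receptors. Its probe (A_51_P392950, chr12:34157815-34157874, plus strand) gave 2359 for KO and 1703 for WT, then 2621 for KO and 2566 for KO Tg. WT was the low channel, and KO Tg lay beside both KO readings. KO was 1.62-fold above WT (log2 ratio 0.70) and 1.23-fold above KO Tg (0.30, or 0.03 without normalization). In Cy5, KO Tg was 1.47-fold above WT, a log2 difference of 0.56 that lies outside the robust SD of all probes, while the KO readings differed by 0.16. Of its 7 BMP and Wnt partners, 4 were lower in KO on both arrays. Bmp7 had log2 ratios of -0.77 and -0.58, and the Wnt co-receptor Lrp6 1.01 and 0.69. Lrp5 and Lrp4 were saturated in a channel of each array, so no fold or direction is given for them.

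Kl encodes alpha-Klotho, the co-receptor through which FGF23 acts, which is also shed into the fluid. The first 30 bases of its 2 probes are printed because, among member probes under their own names, these are furthest above KO Tg.
Kl A_52_P439358, chr5:149925549-149925608, plus strand: tgagtggtcttattgataaccctgatacca
Kl A_52_P112159, chr5:149919300-149919359, plus strand: ctgttattctgggatggttctggtagagaa
The first probe gave 645.1 for KO and 497.6 for WT, then 649.1 for KO and 496.8 for KO Tg. Both controls were alike and both KO readings were alike. KO was 1.42-fold above WT (log2 ratio 0.51) and 1.51-fold above KO Tg (0.59), and the Cy5 difference between KO Tg and WT was -0.07.

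The second Kl probe, 6249 bases away by start, gave 339.2 for KO and 280.1 for WT, then 341.4 for KO and 214.5 for KO Tg. Here KO Tg was the lowest of the channels. The log2 ratio was 0.33 against WT and 0.81 against KO Tg, the latter above 92.4% of the probes. With the scanner's own ratio it was 1.02, past 2-fold. Of 4 genes of Klotho and FGF receptor function, 1 (Fgf23) was lower on both arrays. Fgf23 had log2 ratios of -0.61 and -0.48, and Fgfr3 of -0.03 and 0.22, and the brightest Fgfr1 probe, at 0.76 on the first array, was saturated in Cy5 on the second, so its direction there was not measured.

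Enpp2 encodes autotaxin, the secreted enzyme that makes lysophosphatidic acid. Its brighter probe (A_51_P401974, chr15:54899174-54899231, minus strand) was the brightest reading among the members. It gave 24310 for KO and 30240 for WT, then 27410 for KO and 34040 for KO Tg, so both KO readings were below both controls before normalization. The log2 ratio by loess was 0.30 against WT and 0.34 against KO Tg, but -0.16 and -0.13 with median centring and -0.32 and -0.31 without normalization, so its direction depends on the scaling. The dimmer probe (A_52_P416499, chr15:54933539-54933598, minus strand) gave 249.9 for KO and 236.3 for WT, then 280.1 for KO and 263.7 for KO Tg. Its log2 ratios of 0.12 and 0.27 stayed above 0 under all 6 ways of processing. Among the receptors of lysophosphatidic acid, 2 of 4 detected genes were higher on both arrays and 0 lower on both. Lpar6 had log2 ratios of 0.88 and 1.02, and Lpar1 0.54 and 0.49.

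Clic6 encodes a chloride intracellular channel protein found mainly in secretory epithelia. Its brighter probe (A_52_P447284, chr16:92595284-92595343, plus strand) gave 8255 for KO and 5733 for WT, then 7114 for KO and 6683 for KO Tg. This is nearly the order and spacing of Ttr, with WT lowest. KO was 1.88-fold above WT (log2 ratio 0.91) and 1.41-fold above KO Tg (0.49). The dimmer probe (A_51_P354307, chr16:92594316-92594375, plus strand) gave 1774 for KO and 1202 for WT, then 1964 for KO and 1553 for KO Tg. Its log2 ratios were 0.76 and 0.58, so this pair, 968 bases apart by start, differed by 0.15 and -0.09 where the Folr1 pair differed by -1.07 and 0.19. Clic6 stayed above 0 in both comparisons by both probes under all 6 ways of processing.

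**Figure D2:**
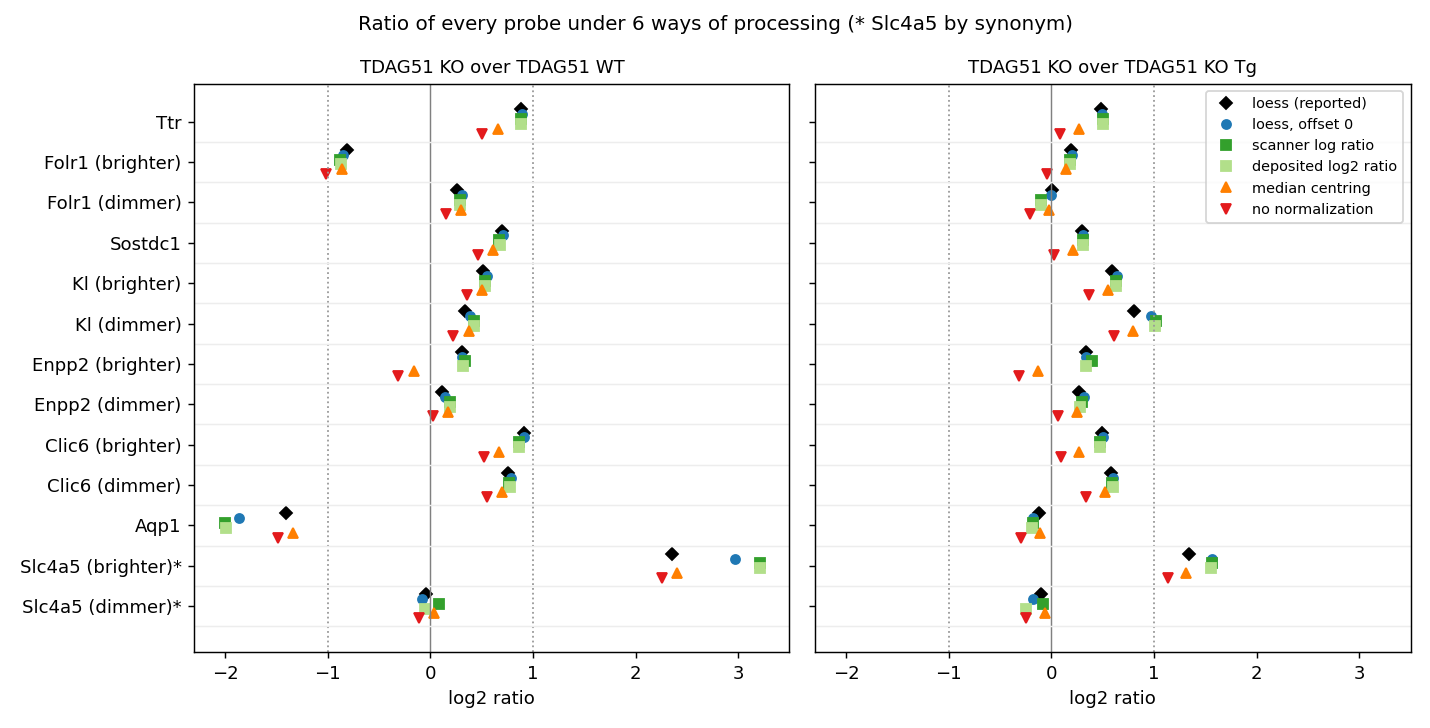
Log2 ratio of each member probe and of the 2 Slc4a5 probes for KO over WT (left) and KO over KO Tg (right), with 1 point for each of 6 ways of processing and dotted lines at 2-fold. Ttr, Clic6, Kl and Sostdc1 stay above 0 under each, the brighter Enpp2 probe falls on both sides of 0, and Aqp1 stays past 2-fold lower against WT, between -1.33 and -2.0.

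Aqp1 encodes the water channel of the apical membrane of choroid plexus, through which much of the fluid's water passes, and of red blood cells. The start of its probe is printed because it gave the largest difference among the 11.
Aqp1 A_51_P125205, chr6:55311856-55311915, plus strand: ctgtgtatgtttctttgcaattgaatttca
It gave 118.4 for KO and 344.2 for WT, then 118.5 for KO and 143.0 for KO Tg. WT was the only high channel, and both KO readings were the same to within 0.02 on the log2 scale. KO was 2.65-fold below WT (log2 ratio -1.41), lower than all but 1.67% of the probes, and the log2 ratio against KO Tg was -0.12. KO Tg was 2.41-fold below WT in Cy5 (log2 difference -1.27). Its KO and KO Tg readings were low, where the offset of 50 shrinks ratios, and the scanner's own log2 ratio was -2.0 against WT.

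Genes of red blood cells separated WT from KO Tg in the same direction as Aqp1. Their summed intensity after normalization was 88620 in WT and 61800 in KO Tg, and 16900 and 120800 in the KO channels of the first and second array. The WT sum includes the saturated Hbb-b1 spot and is a lower bound. Alas2, the haem synthesis enzyme of red cell precursors, had a Cy5 difference of -2.77, and Slc4a1, the anion exchanger of the red cell membrane, of -2.09. All 5 measured genes had a negative Cy5 difference. Against WT all 5 were lower in KO, with a median log2 ratio of -1.41 (Hbb-b1 was saturated in WT), and against KO Tg all 5 were higher, with a median of 1.22. Aqp1 was lower in KO in both comparisons. In the KO channels Aqp1 differed by 0.02 where Hba-a1 differed by 4.04. The part of red blood cell RNA in the Aqp1 reading was not tested.

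Slc4a5 encodes an electrogenic sodium bicarbonate cotransporter of the apical membrane. The brighter of the 2 probes under its older name (A_51_P403814, chr6:83329041-83329100, plus strand) gave 589.1 for KO and 110.8 for WT, then 503.2 for KO and 224.7 for KO Tg. Both KO readings were above both controls. KO was 5.1-fold above WT (log2 ratio 2.35), higher than 99.6% of the probes, and 2.53-fold above KO Tg (1.34), higher than 97.9%, and it stayed past 2-fold on both arrays under all 6 ways of processing. This is the only reading of the 8 genes that was 2-fold higher in KO than in both controls. The other probe (A_52_P384831, chr6:83305456-83305515, plus strand) was near background, at 73.1 for KO and 71.0 for WT, then 80.2 for KO and 96.2 for KO Tg, with log2 ratios of -0.04 and -0.10. The probes disagree, and which of them reads the Slc4a5 transcript could not be settled from the names in the files.

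**Figure D3:**
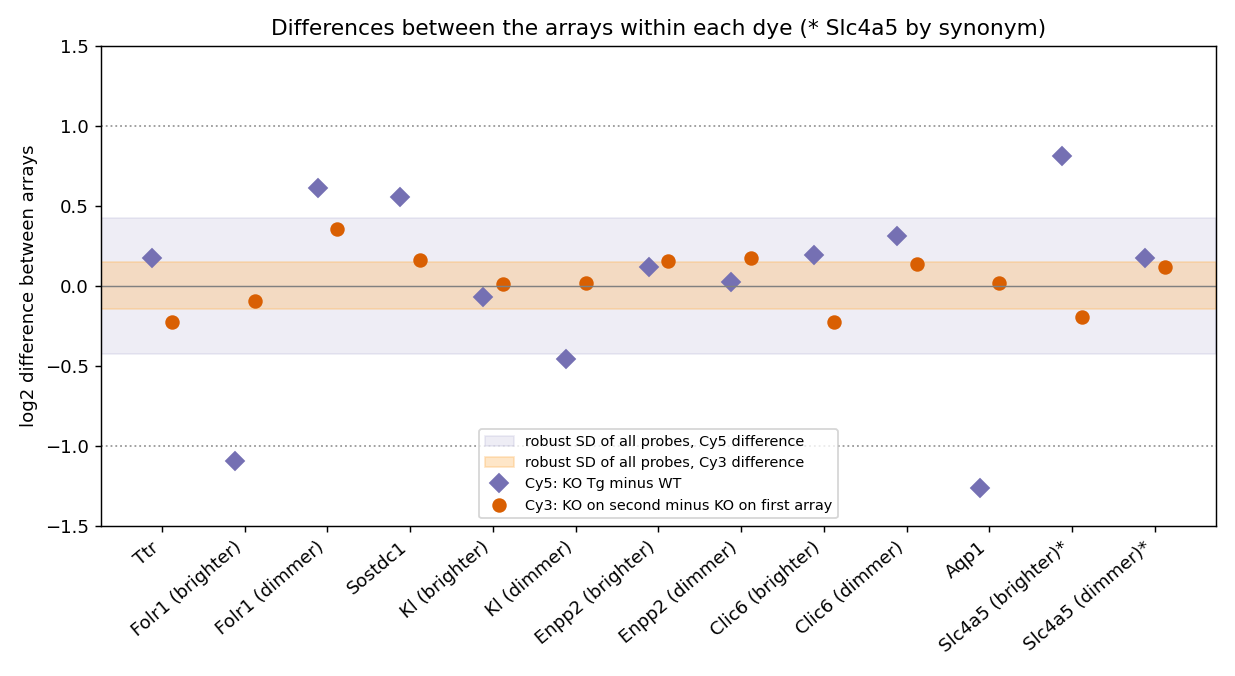
Log2 difference between the second and the first array for each member probe and the 2 Slc4a5 probes, within Cy5 (KO Tg minus WT, diamonds) and within Cy3 (KO minus KO, circles). Shaded bands are 1 robust SD of all probes (0.424 for Cy5, 0.146 for Cy3). The Cy5 points of Aqp1 (-1.27) and of the brighter Folr1 probe (-1.10) lie below the 2-fold line, and the KO points span -0.23 to 0.36.

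Between the Cy5 samples, 3 of the 7 member genes (Aqp1, Folr1 and Sostdc1) differed by more than the robust SD of all probes. The share of all probes beyond 1 robust SD was not counted, so this count is not read as a trait of the members. The median log2 difference of KO Tg over WT was 0.12 over the 7 genes, and 2 of them (Aqp1 and Folr1) were 2-fold lower in KO Tg, beside 4.12% of all probes. For Folr1 this rests on its brighter probe, and the median of both Folr1 probes was -0.24. None was 2-fold higher. In order, the differences were 0.56 for Sostdc1, 0.19 for Clic6, 0.18 for Ttr, 0.12 for Enpp2, -0.07 for Kl, -1.10 for Folr1 and -1.27 for Aqp1. The neighbours from Clic6 to Kl lie within 1 robust SD of each other and of 0. Both comparisons share the KO sample, so the values against WT and against KO Tg are not independent readings.

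Other genes of the choroid plexus epithelium spread to both sides. Of 30 matched genes, 28 were well above background on both arrays in 1 channel or more, which Tmem72 and Lmx1a were not. In KO, 15 were higher on both arrays, 4 lower on both and 9 of opposite sign, with median log2 ratios of 0.31 and 0.16 (0.12 and -0.11 without normalization). The genes 2-fold higher on both arrays were 3, against 2.7% of all probes. Kcne2, a potassium channel subunit, gave 6445 for KO and 2605 for WT, then 6523 for KO and 3670 for KO Tg, with log2 ratios of 1.60 and 1.17. Cgnl1, a junction protein, had 1.41 and 1.51, and Wfdc2, a secreted protease inhibitor, 1.12 and 1.37. In each of them both KO readings were above both controls.

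The 3 genes of that list with the brightest probes in WT were Cab39l, Igf2 and Krt8, a choice that itself favours low ratios of KO over WT. Igf2, a growth factor secreted into the fluid, had log2 ratios of 0.54 and 0.15, or -0.01 and -0.42 without normalization, Cab39l of 0.56 and 0.49, and the keratin Krt8 of 0.14 and -0.25. Otx2, the transcription factor of choroid plexus identity, had 1.48 and 0.66. The tight junction gene Cldn1 was lower, at -1.68 against WT, and its KO channel was not well above background on the second array. Of 10 ion and bicarbonate transport genes, 4 were higher on both arrays and 3 lower on both. The sodium pump subunit Atp1b1 had log2 ratios of -0.14 and -0.25, and the carbonic anhydrase Car2 of 0.31 and 0.59.

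**Figure D4:**
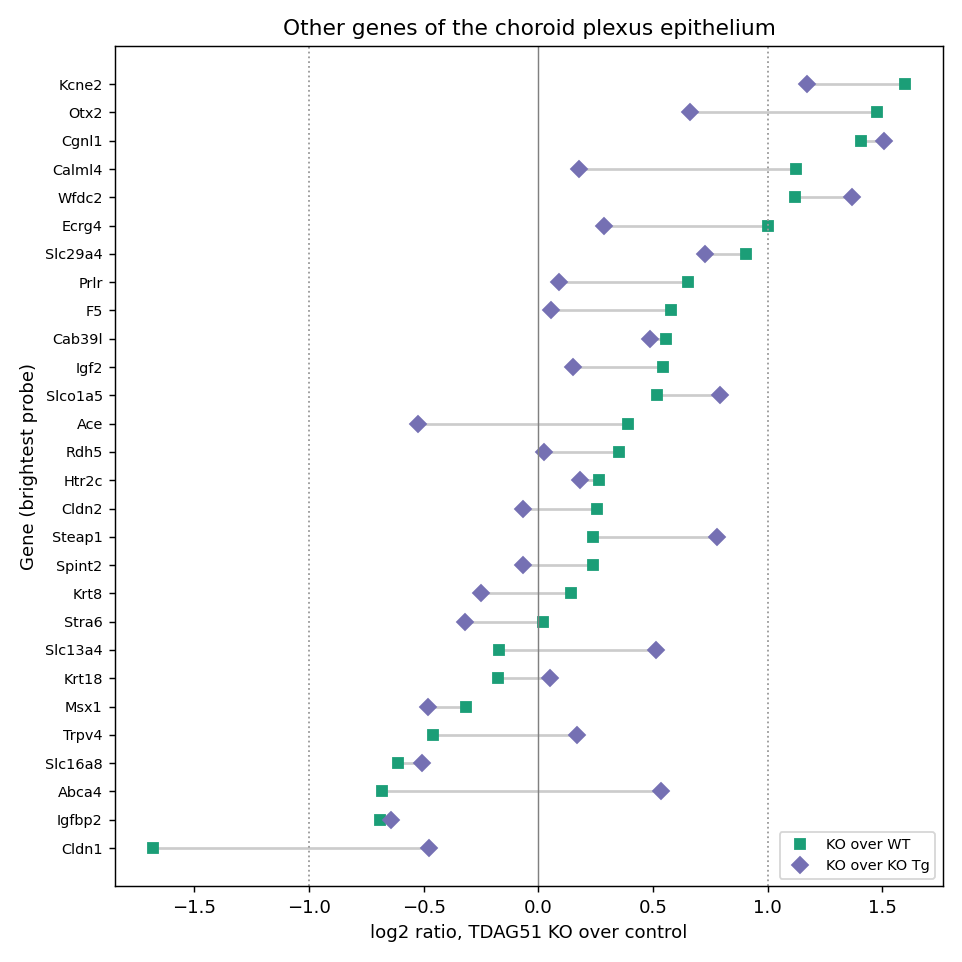
Log2 ratio of KO over WT (squares) and KO over KO Tg (diamonds) for the 28 detected genes of the other choroid plexus list, by the brightest probe, ordered by the first ratio, with dotted lines at 2-fold. Kcne2, Cgnl1 and Wfdc2 lie past 2-fold on both arrays, and Cldn1 lies lowest at -1.68 against WT.

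Cells that border the choroid plexus gave small medians, beside 0.51 and 0.34 for the member genes, and brain regions gave far larger ones. A small rise on both arrays was not particular to the members, since ependymal and meningeal genes showed it too. Ependymal genes had median log2 ratios of 0.26 and 0.44, with 5 of 9 higher on both arrays, and its brightest gene in WT, Dynlrb2, gave 0.01 and -0.35. Meningeal genes had 0.40 and 0.50, with 6 of 11 higher on both, and Dcn gave 0.37 and 0.50. Endothelial genes had 0.49 and 0.05, with Slco1a4 at 0.74 and 0.68. Myelin genes, read because oligodendrocytes also make Enpp2, had -0.19 and 0.28, with 1 gene saturated, and neuronal genes -0.05 and -0.13.

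Cerebellar genes were higher in KO on both arrays in 10 of 10 cases, with medians of 2.27 and 2.20 in which 3 genes were saturated in KO and enter as lower bounds, and hindbrain genes in 7 of 8, with medians of 2.62 and 2.73. The granule cell receptor subunit Gabra6 had log2 ratios of 3.87 and 3.93. Striatal genes were lower on both in 9 of 10 cases, with medians of -1.44 and -1.44, and cortical genes in 6 of 6, with -1.01 and -1.41 (1 gene was saturated in a control). The medians of these lists were past 2-fold on both arrays, where those of the members were not. How far the regional make-up of each sample enters the member values was not tested.

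**Figure D5:**
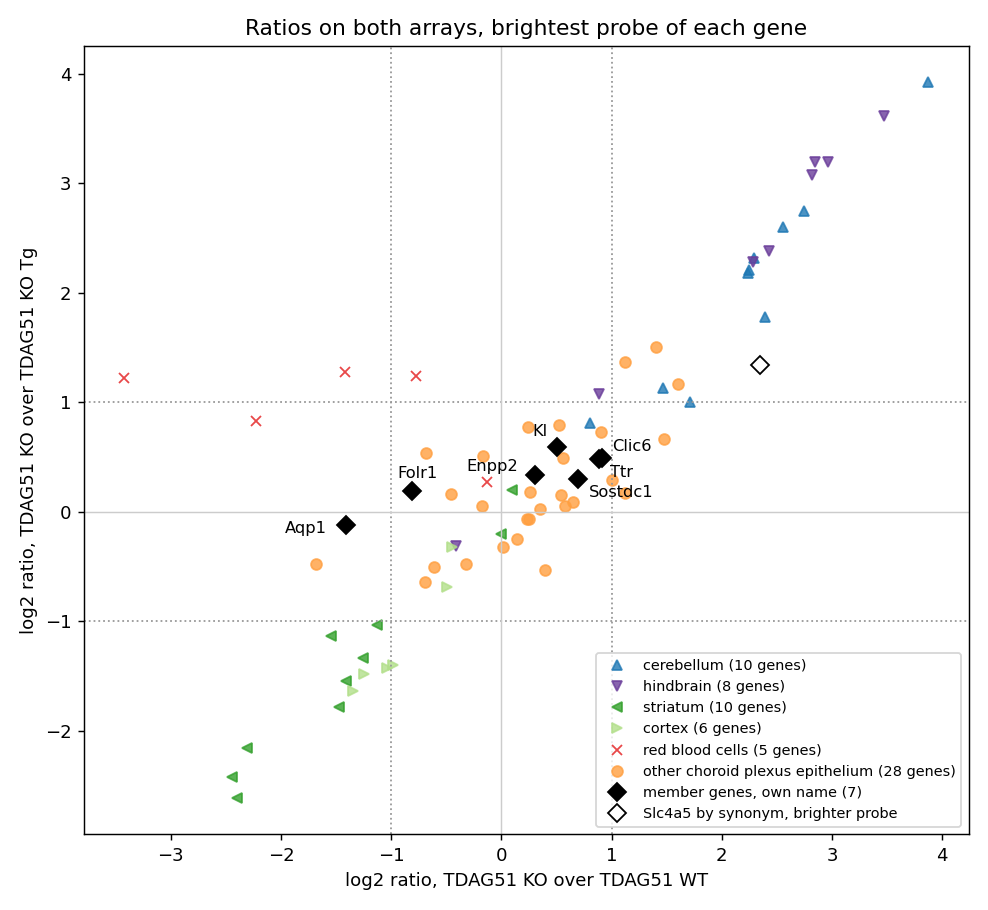
Log2 ratio of KO over WT (horizontal) against KO over KO Tg (vertical) for the brightest probe of each gene, with the 7 member genes as filled diamonds, the brighter Slc4a5 probe as an open diamond, 6 of the other lists in colour and dotted lines at 2-fold. The KO sample is shared by both axes. The member genes lie between -1.41 and 0.91 on the horizontal axis, inside the span of the regional lists, and the red blood cell genes lie to the left of 0 and above it.

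The gene names outside the lists that were nearest to the median of the 7 member genes over the 3 differences (KO over WT, KO over KO Tg and KO Tg over WT) were Mllt3, Ube4a, Mlstd1, Mthfd1 and Chuk, at distances of 0.0115 to 0.0419 on the log2 scale. Of 19830 gene names with a measured probe, 566 (2.85%) lay within 0.2 of that median, so many other genes hold the same place on these 2 arrays.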

How the data were processed

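Whole brain RNA of 3 genotypes was measured on 2 two-colour Agilent whole mouse genome arrays. The authors deposited the scanner output of Feature Extraction 9.5.3.1 (array design 014868), with the mean intensity and median background intensity of each spot and a log10 ratio of Cy5 over Cy3. A log2 ratio, Cy3 over Cy5, was deposited too and differed from the scanner's by a median of 0.00594 and 0.0058. The scanner's p-value, of its error model for a spot, was not used. How the authors normalized the log2 ratio is not given in the sources used here.

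Background was corrected with normexp (offset 50), and loess was run on each array in limma 3.58.1 (R 4.3.3) with control spots at weight 0. Then 375 and 300 outlier spots, of 43379 that are not control spots, were left out. The remaining spots of a probe were averaged. Channels were compared across arrays after Aquantile. A gene is represented by its brightest probe. Plots were drawn with matplotlib 3.10.9, and tables were made with Python 3.11.15, numpy 2.4.6, scipy 1.17.1 and pandas 2.3.3. The median spot intensity was 338.2 (Cy3) and 363.8 (Cy5) on the array with WT, and 336.1 and 385.0 on the array with KO Tg. With 1 array for each comparison their number limits the precision, and no p-value was computed. The repeated spots of 245 probes had a median SD of 0.0629 and 0.0650. The method was tested on simulated data with changes larger than most member ratios, so that test does not cover ratios of their size.

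The members and the 17 other lists (155 genes, 152 matched: 131 by symbol, 18 by accession and 3 by synonym in a GRCm38.p6 table) were chosen with earlier results of these data known. Named genes are TDAG51, all members, up to 6 genes per list 2-fold off in 1 direction on both arrays, up to 3 brightest in WT, and the 5 genes nearest to the members. Lrp6, Otx2, Cldn1, Slc4a1, Tmem72 and Lmx1a were named after their values were seen. Some genes of the lists are counted but not reported singly. Alternatives were offset 0, the scanner's and the deposited ratio, median centring, no normalization, filters on background and saturation, other choices of probe, and, for the Cy5 difference, the ratio of both ratios.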

Additional observations from a re-analysis of the deposited data

Results flagged for a closer look

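The brighter Folr1 probe had opposite signs in the comparisons, lower in KO than in WT (log2 ratio -0.81) and higher than in KO Tg (0.19). The latter was -0.04 without normalization and lies within the scanner's error of 0.205, so its sign depends on the scaling. The difference of both ratios, KO over WT minus KO over KO Tg, was -1.002 on the log2 scale. With 1 array for each comparison this difference was not tested, and the dimmer Folr1 probe had 0.26 and 0.01.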

How the results depend on the processing

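The number of member genes 2-fold higher in KO was 0 against WT, against KO Tg and against both under each of the 9 other ways of processing, and 1 in each when Slc4a5 was added by its older name, a choice made after seeing the data. That addition gave medians of 0.60 against WT and 0.41 against KO Tg. The median against WT was 0.36 without normalization and 0.42 over all probes of a gene. The median against KO Tg was 0.21 with median centring and 0.028 without normalization. The median Cy5 difference was -0.034 as the ratio of both ratios. Without normalization the median of all probes moved to -0.19 and -0.25, so those member medians stand above a shifted background. The number of member genes higher in both comparisons was 4 with median centring or no normalization, in place of 5. The gene that left the count was Enpp2, whose brighter probe fell below 0 in both comparisons under these settings. Why its direction depends on the scaling was not tested. Of single member values no called one changed sign, but the Cy5 difference of Folr1 (-1.10) was -0.24 over both its probes and so no longer 2-fold. Probes 2-fold higher than in both controls ranged from 582 without normalization to 2038 with the scanner's ratio, against 897, and 2-fold lower ones from 436 where both channels had to be well above background to 1233 without normalization, against 456. No paired analysis was possible because the labels give no replicate numbers and each comparison is 1 array. Probes near 100 units, such as Aqp1, are limited by background most.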
